A study of Mus musculus with 90 samples.

Results

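Id proteins, E proteins and Zeb factors were followed as 8 genes, Id1, Id2, Id3, Tcf3, Tcf4, Tcf12, Zeb1 and Zeb2, out of 23420 genes in a count table of 90 RNA-sequencing libraries from mouse T cells. They were taken by gene symbol, with no use of their measured values. The Treg series held 30 wild-type libraries in 10 groups of 3. Regulatory T cells (Tregs) had been sorted as IL10-expressing (IL10), Ebi3-expressing (Ebi3, a subunit of IL-35) or negative for both (DN) from tumours (TIL), non-draining lymph nodes (ndLN) and a source labelled naive T cell, and naive effector T cells (Teff) stood beside them. The CD8 series held 60 libraries of CD8 T cells in 20 groups of 2 to 4. Tumour cells without PD-1 or TIM-3 are called NEG. Those with intermediate PD-1 are INT, those with high PD-1 are SP, and both lack TIM-3, whereas DP cells carry high PD-1 together with TIM-3. These are the 4 tumour populations, and a further population came from the non-draining lymph node (NDLN). The CD8 cells came from mice labelled DKO, Il10, Ebi3L or yfp, for which the study's design text names Treg-specific loss of both IL10 and IL35, of IL10 and of IL35, with yfp as the remaining genotype. The driver of the Treg-specific deletion, the tumour model, the age of the mice and any pooling of mice do not stand in the labels. The libraries of each genotype and number form 12 sets of 5 CD8 libraries, which the labels do not tie to a single mouse, and p-values therefore reflect how far these libraries vary, which may in part be technical.

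Id proteins and E proteins are helix-loop-helix transcription regulators. E proteins, encoded here by Tcf3, Tcf4 and Tcf12, pair with each other and bind short DNA motifs called E-boxes, whereas Id proteins pair with E proteins but lack the DNA-binding region and so keep them off DNA. In mouse T cells Id2 is known for supporting effector CD8 T cells and Id3 for memory and less differentiated cells, and both restrain E proteins in Tregs. Zeb1 and Zeb2 are zinc-finger repressors that also read E-box-like motifs, and in mouse CD8 T cells Zeb2 is known to act with T-bet in terminal effector cells and Zeb1 in memory cells.

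The 3 Id genes are close copies of each other where they encode the helix-loop-helix, and these stretches are shown because the report turns on Id2 and Id3 being counted apart. In 40 codons of the coding sequence of each gene, from GENCODE transcripts on GRCm38, capitals mark the bases that are identical in all 3 genes. The stretches cover coding bases 178 to 297 of 447 in Id1, 109 to 228 of 405 in Id2 and 124 to 243 of 360 in Id3.
Id1: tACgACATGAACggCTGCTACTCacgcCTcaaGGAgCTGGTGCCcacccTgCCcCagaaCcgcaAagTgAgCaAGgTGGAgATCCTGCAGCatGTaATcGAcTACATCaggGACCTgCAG
Id2: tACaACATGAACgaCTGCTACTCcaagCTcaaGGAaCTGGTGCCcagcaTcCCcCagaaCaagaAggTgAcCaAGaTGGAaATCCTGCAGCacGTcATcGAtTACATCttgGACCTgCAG
Id3: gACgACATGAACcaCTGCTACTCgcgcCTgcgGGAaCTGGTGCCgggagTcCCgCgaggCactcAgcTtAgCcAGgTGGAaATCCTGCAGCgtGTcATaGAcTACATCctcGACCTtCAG
Of 120 bases, 77 (64.2%) are the same in all 3. Id1 and Id2 share 81.7% of them, Id2 and Id3 71.7%, and Id1 and Id3 70.8%. The longest identical run anywhere in the transcripts is 19 bases between Id2 and Id3, 12 between Id1 and Id3 and 11 between Id1 and Id2.

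E-boxes in the members' own promoters are shown because E proteins are among the factors that read them. RefSeq promoter windows on GRCm38.p6, from 250 bases before to 50 after a start, were present for 5 members with 10 windows, and they were searched on both strands for CANNTG, which reads the same on both. Of 32851 windows of that length, 72.3% hold CANNTG, 20.2% CAGGTG and 16.3% CAGCTG. The capitals below mark the motif.
Id2, chr12:25096273-25096298, minus strand, 196 bases before the start: tttgccacccCAGCTGggctctcgcc
Tcf3, chr10:80433674-80433699, minus strand, 54 bases before the start: tgggcgtggtCACTTGggggcgtggc
Tcf12, chr9:72112044-72112069, minus strand, 240 bases before a start: agatgctgccCAGCTGcgtccccgtc
Tcf12, chr9:72111335-72111360, minus strand, 149 bases before another start: cagggcggccCAAGTGggaggtggag
The windows of Tcf12 held 4 matches in all, and none of the 10 windows held CAGGTG. The single window of Id3 and the 4 windows of Zeb2 held no CANNTG. With the motif in most windows of the genome, these matches describe the windows and no more.

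On mm10 the Id genes lie on different chromosomes, Id1 at chr2:152736251-152737410 on the plus strand, Id2 at chr12:25093799-25097140 on the minus strand and Id3 at chr4:136143497-136145755 on the plus strand. The E protein genes are Tcf3 at chr10:80409514-80433647 (minus), Tcf4 at chr18:69343356-69689079 (plus) and Tcf12 at chr9:71842688-72111871 (minus). Zeb1 lies at chr18:5591860-5775467 (plus) and Zeb2 at chr2:44983632-45117395 (minus). An antisense gene, Zeb2os, shares 653 exon bases (3.27%) with Zeb2, and Gm10125 on the opposite strand shares 198 exon bases (1.93%) with Zeb1. Since the sources used here do not say whether counting used strand, reads from these antisense partners cannot be told apart from reads of Zeb2 and Zeb1.

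Libraries held 9729837 to 20217970 counts in the Treg series and 19215118 to 47701813 in the CD8 series, and levels are given as CPM, the counts scaled to a common library total. Where a library lists a gene at 0, a level of up to 3 counts remains possible, which is 0.0629 to 0.308 CPM depending on the library, and this floor covers counting error only. Id2, Tcf3, Tcf12 and Zeb1 were above it in all 90 libraries. Id3 was above the floor in 30 of 30 Treg-series and 57 of 60 CD8 libraries, Tcf4 in 24 and 56, Zeb2 in 14 and 49, and Id1 in 16 and 30. Id1 never exceeded 5.11 CPM. The labelled cell types carried their markers, since Cd8a and Cd8b1 together summed to 1430 CPM or more in every CD8 library against 43.2 CPM or less in the Treg series, and the Treg list of 4 genes summed to 1250 to 5100 CPM in Tregs against 40.3 to 58.2 CPM in Teff. In the CD8 series that Treg list ran from 14 to 285 CPM in NEG and from 297 to 849 CPM in DP, and it holds Ctla4, which CD8 T cells also express.

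Levels can be set between genes only per length, here as mean CPM per kilobase of merged exon. In tumour DN Tregs Id2 stood at 583 ± 258 CPM per kilobase (SD, n = 3), against 5.94 ± 1.75 for Id3. In naive DN Tregs the order was the other way round, with Id2 at 21.1 ± 6.67 and Id3 at 277 ± 11.9 CPM per kilobase. In tumour DN Tregs the E protein and Zeb genes had lower means than Id2 and Id3. Tcf3 had 4.20 ± 1.42, Zeb1 3.90 ± 0.318, Tcf12 2.86 ± 0.62, Zeb2 0.458 ± 0.432 and Tcf4 0.1 ± 0.0368 CPM per kilobase there. By this measure Tcf3, Zeb1 and Tcf12 were at like levels in that group, and Zeb2 and Tcf4 lay below them. Merged exons span all annotated transcripts of a gene. They cover 27382 bases in Tcf4, 19942 in Zeb2, 15529 in Tcf12, 10266 in Zeb1 and 4039 in Tcf3. Which transcripts were expressed was not tested, so the order of genes depends on the length used. Other groups differed. In the tumour IL10 sort Id3 stood at 2.10 ± 1.27, below Zeb1 at 4.12 ± 0.34. In DP of DKO (n = 4) Tcf3 had 15.7 ± 4.19, against 3.72 ± 0.74 for Zeb1 and 3.36 ± 0.606 for Tcf12.

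Id2 was higher in tumour Tregs than in Tregs of the lymph node or the naive source, and within lymph node and naive Tregs it was higher in the IL10 sort than in the Ebi3 sort and higher in the Ebi3 sort than in DN. Id3 ran the other way in the same cells. In tumour Tregs Id2 was at 2957, 1356 and 1992 CPM in the IL10 sort, at 2066, 1092 and 1655 CPM in the Ebi3 sort and at 2132, 936 and 1193 CPM in DN. In ndLN Tregs it was at 326, 294 and 445 CPM in the IL10 sort, at 150, 122 and 184 CPM in the Ebi3 sort and at 60.4, 47.1 and 84.3 CPM in DN. Naive Tregs had 422, 322 and 488 CPM in the IL10 sort, 159, 128 and 197 CPM in the Ebi3 sort and 52.8, 34.4 and 66.8 CPM in DN, while Teff had 111, 117 and 171 CPM. All 9 tumour libraries were above all others, the 3 tumour sorts overlapped with each other, and in lymph node and naive Tregs the 3 sorts were apart from each other without overlap. In the order of group means, Teff sat with the Ebi3 sorts and above both DN groups.

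**Figure D1:**
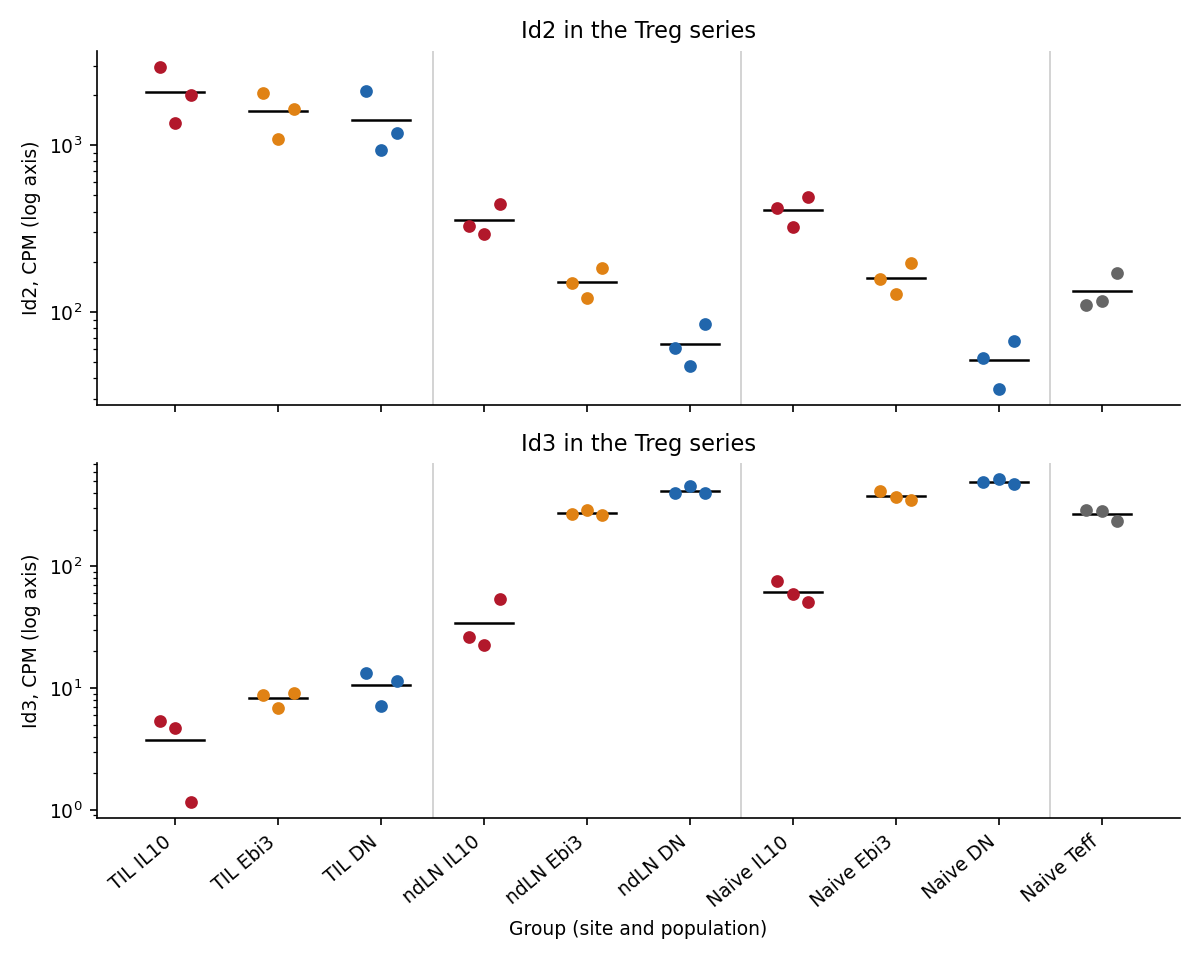
CPM of Id2 (top) and Id3 (bottom) on log axes in the 10 groups of the Treg series, with 1 point for each library and a bar at the mean of 3. The tumour libraries are highest for Id2, from 936 to 2957 CPM, and lowest for Id3, from 1.17 to 13.4 CPM.

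Tests used edgeR's quasi-likelihood model with batch as a term, and a gene is called where its Benjamini-Hochberg adjusted p over all genes tested is under 0.05. The IL10 and the Ebi3 comparisons with DN share the DN libraries of their site. In naive Tregs Id2 was 8.13-fold higher in the IL10 sort than in DN, a log2 fold change of 3.02 ± 0.216 (standard error, SE, here and below; edgeR adjusted p = 2.02e-10). It was 5.66-fold higher in the IL10 sort than in DN of the ndLN (log2 2.50 ± 0.211, edgeR adjusted p = 5.05e-09). Between the Ebi3 sort and DN the Id2 difference was 3.02-fold in naive Tregs (edgeR adjusted p = 9.73e-06) and 2.31-fold in ndLN Tregs (edgeR adjusted p = 0.000205). The IL10 sort also exceeded the Ebi3 sort, by 2.70-fold in naive and 2.45-fold in ndLN Tregs. Within tumours no Id2 difference was called, with log2 0.62 ± 0.198 between the IL10 sort and DN (edgeR adjusted p = 0.213) and 0.16 ± 0.197 between the Ebi3 sort and DN (edgeR adjusted p = 0.89). Of all genes tested 17.8% were called between the IL10 sort and DN in naive Tregs, 16.2% in ndLN Tregs and 0.837% in tumour Tregs. In tumours the Ebi3 sort against DN and the IL10 sort against the Ebi3 sort had 0 of 8 members called by edgeR. Of these members 0 and 2 had an unadjusted p under 0.05, beside 1241 and 1898 of 12907 genes, and DESeq2 called 0 and 1. In naive, ndLN and tumour Tregs the called shares of all genes were 12.8%, 13% and 0.713% between the Ebi3 sort and DN. Between the IL10 and Ebi3 sorts they were 5.48%, 5.07% and 2.84%.

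Id3, the other Id gene with high levels, was lowest in the IL10 sort at every site. In tumour Tregs it was at 5.40, 4.71 and 1.17 CPM in the IL10 sort, at 8.72, 6.85 and 9.14 CPM in the Ebi3 sort and at 13.4, 7.20 and 11.4 CPM in DN. In ndLN Tregs it was at 26.5, 22.5 and 53.7 CPM in the IL10 sort, at 270, 292 and 266 CPM in the Ebi3 sort and at 399, 461 and 401 CPM in DN. Naive Tregs had 76.2, 59.1 and 51.1 CPM in the IL10 sort, 418, 371 and 355 CPM in the Ebi3 sort and 495, 519 and 476 CPM in DN, and Teff had 291, 288 and 236 CPM. The IL10 sort lay below the other sorts at each site without overlap, and the Ebi3 sort lay below DN without overlap in naive and ndLN Tregs but not in tumours. In the order of group means the 3 tumour groups were lowest and naive DN was highest.

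Between the IL10 sort and DN, Id3 fell, by log2 -3.01 ± 0.316 in naive Tregs (edgeR adjusted p = 2.19e-07) and -3.60 ± 0.326 in ndLN Tregs (edgeR adjusted p = 3.09e-08). Against the Ebi3 sort the log2 fold change was -2.54 ± 0.31 in naive Tregs (edgeR adjusted p = 8.46e-06) and -2.94 ± 0.318 in ndLN Tregs (edgeR adjusted p = 1.69e-06). In tumours Id3 was lower in the IL10 sort than in DN by log2 -1.48 ± 0.356 (edgeR adjusted p = 0.0476), but that call was lost without each of the 3 replicates in turn, where the value ran from -1.88 to -0.967. The Ebi3 sort was not called against DN for Id3 at any site, with log2 -0.47 ± 0.292 in naive, -0.66 ± 0.292 in ndLN and -0.38 ± 0.33 in tumour Tregs. In naive DN Tregs against Teff, where 12.2% of genes were called, Id2 was lower by log2 -1.38 ± 0.206 (edgeR adjusted p = 3.03e-05). Id3 was higher there by log2 0.90 ± 0.294 (edgeR adjusted p = 0.0458), which was lost without replicate 1 and without replicate 2, over values from 0.843 to 0.942. Across the 16 Treg comparisons Id2 was called higher in 9 and lower in 1, and Id3 higher in 1 and lower in 8.

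Both Id genes differed between tumour and lymph node Tregs in each sort. Against ndLN Tregs of the same sort, Id2 was 24.0-fold higher in tumour DN, 11.6-fold higher in the tumour Ebi3 sort and 6.50-fold higher in the tumour IL10 sort. These are log2 fold changes of 4.59 ± 0.231, 3.54 ± 0.219 and 2.70 ± 0.211, with edgeR adjusted p of 1.81e-13, 2.03e-11 and 1.52e-09. Id3 fell, with log2 fold changes of -5.18 ± 0.355 in DN, -4.90 ± 0.353 in the Ebi3 sort and -3.07 ± 0.354 in the IL10 sort, with edgeR adjusted p of 1.86e-10, 5.41e-10 and 1.55e-06. Of all genes, 23.4%, 10.3% and 9.32% were called in the DN, Ebi3 and IL10 comparisons. All 6 of these Id calls held when each replicate was left out. These are bulk libraries, so fewer cells that express a gene and less RNA per cell cannot be told apart.

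The size of the tumour difference depended on the sort. The Id2 difference between tumour and ndLN was smaller in the IL10 sort than in DN by log2 -1.89 ± 0.284 (edgeR adjusted p = 0.000161, with 4.49% of genes called), and in all 3 fits that left out a replicate it stayed called, from -2.02 to -1.78. The Id3 difference was less negative in the IL10 sort by log2 2.11 ± 0.471 (edgeR adjusted p = 0.00922), but it was not called without replicate 1 or without replicate 2, and the value ran from 1.41 to 3.16 over the 3 omissions. Between the Ebi3 sort and DN neither was called, with log2 -1.05 ± 0.283 for Id2 (edgeR adjusted p = 0.0614) and 0.28 ± 0.441 for Id3. In that difference edgeR called 0 of 8 members and 1.61% of all genes, and the Id2 value, with an unadjusted p of 0.00111, was called by DESeq2. Between ndLN and naive Tregs of the same sort, edgeR called 0 of 8 members in DN, IL10 and Ebi3, where 0.0852%, 0.0542% and 0.00775% of genes were called. At an unadjusted p under 0.05 there were 1, 2 and 1 members, which were Zeb2 in DN, Id3 and Tcf4 in IL10 and Zeb2 in Ebi3. Such a p was held by 959, 763 and 613 of 12907 genes in the same order. DESeq2 also called 0 members.

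**Figure D2:**
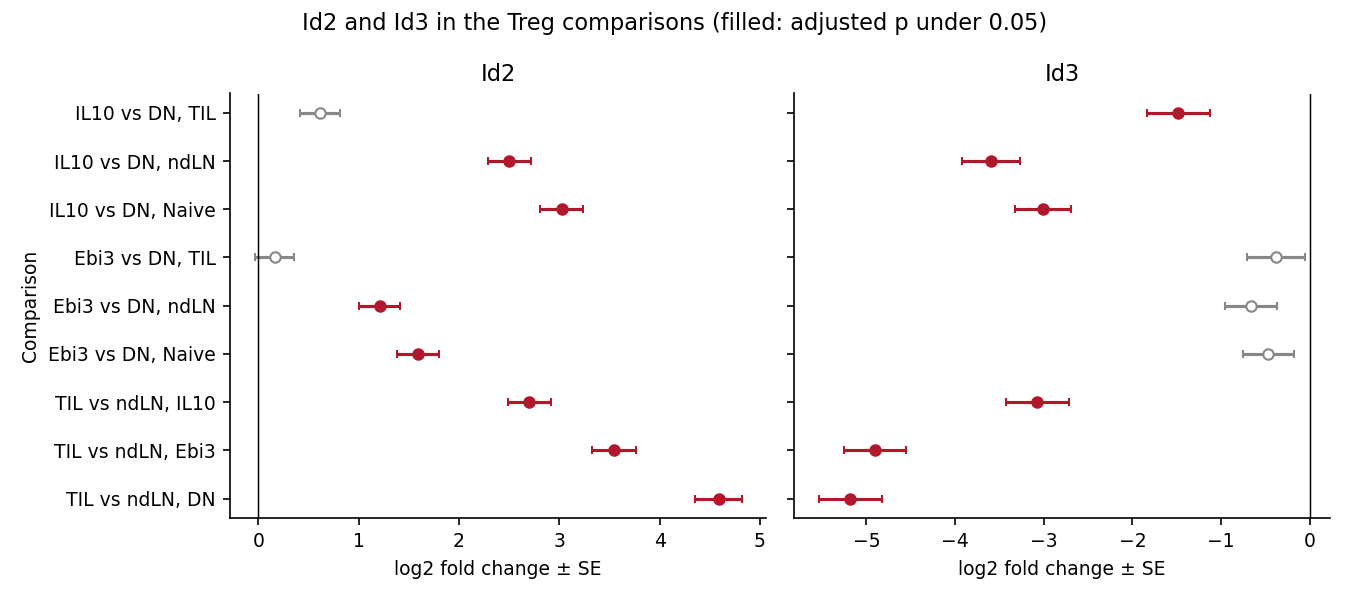
Log2 fold changes of Id2 (left) and Id3 (right) with their SE in 9 Treg comparisons, as filled points where the edgeR adjusted p was under 0.05 and open points otherwise. The sorts differ less in tumours, where Id2 in the IL10 sort against DN was 0.62, than in ndLN, where it was 2.50.

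Of the E protein genes only Tcf4 was called in the Treg series, by edgeR and in 2 comparisons. Tcf3 ranged from 7.59 to 29.9 CPM over the 30 libraries, its 10 groups overlapped along the whole order of means, and it was called in 0 of 16 comparisons by edgeR or DESeq2, with 0 at an unadjusted p under 0.05. Tcf12 was at 30.6, 21.5 and 34.4 CPM in the tumour IL10 sort, at 41.8, 44.6 and 42.2 CPM in the tumour Ebi3 sort and at 54.1, 34.9 and 44.1 CPM in tumour DN. The tumour IL10 sort was the lowest of the 10 groups and did not overlap with the tumour DN or Ebi3 sorts. Its difference from the ndLN IL10 sort (60.5, 48.1 and 65.0 CPM) was log2 -0.83 ± 0.273 (edgeR adjusted p = 0.0544), and Tcf12 was called in 0 of 16 comparisons by edgeR and in 1 by DESeq2, with 2 at an unadjusted p under 0.05 in each. Tcf4 was listed at 0 in all 3 naive IL10 libraries, against 1.53, 2.07 and 0.294 CPM in the naive Ebi3 sort and 1.26, 2.31 and 0.777 CPM in naive DN. Measured against the floor of 3 counts over the group, it was at least 6.57-fold lower than in DN (edgeR adjusted p = 0.0144) and at least 5.87-fold lower than in the Ebi3 sort (edgeR adjusted p = 0.0427). Both calls were lost without each of the 3 replicates in turn, and the highest adjusted p was 0.132 and 0.274.

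Zeb1 differed in 1 of 16 Treg comparisons. It was at 44.9, 43.7 and 38.4 CPM in the tumour IL10 sort, against 25, 23.2 and 27.7 CPM in the ndLN IL10 sort. The groups did not overlap, and the log2 fold change was 0.91 ± 0.257 (edgeR adjusted p = 0.0221), but the call was lost without each replicate in turn, where the value ran from 0.84 to 1.02. Zeb2, the terminal-effector repressor, was above its floor in all 9 tumour Treg libraries and in 5 of the other 21. It was at 9.4, 15.6 and 9.28 CPM in the tumour IL10 sort, at 10, 5.16 and 5.60 CPM in the tumour Ebi3 sort and at 3.87, 4.45 and 19.1 CPM in tumour DN. In ndLN Tregs Zeb2 had 0.444, 0 and 4.08 CPM in the IL10 sort, 1.96, 0 and 0 CPM in the Ebi3 sort and 0, 0 and 1.97 CPM in DN, and in naive Tregs it was at 0 in all 6 DN and Ebi3 libraries. Each tumour group lay above its ndLN group without overlap, but none of these 3 differences was called by edgeR or DESeq2, with log2 4.53 ± 1.70 in DN (edgeR adjusted p = 0.0576), 4.47 ± 1.73 in the IL10 sort (0.118) and 3.56 ± 1.64 in the Ebi3 sort (0.208). Myeloid cells also express Zeb2. A myeloid list of 12 genes, 11 of them measured, had lowest, median and highest sums of 5.22, 10.8 and 12.4 CPM in tumour DN. In ndLN DN they were lower without overlap, at 1.93, 2.87 and 4.23 CPM. The IL10 sort had 8, 18.3 and 19.9 CPM in tumours against 19, 22.2 and 28.9 CPM in ndLN. The Ebi3 sort had 8.01, 10.8 and 11.8 CPM in tumours against 3.14, 10.4 and 207 CPM in ndLN. Plasmacytoid dendritic cells express Zeb2 as well, and a list of 6 of their genes had lowest, median and highest sums of 7.35, 7.91 and 67.8 CPM in tumour DN, against 31.6, 59.0 and 77.0 CPM in ndLN DN. Siglech, their surface marker, reached 23.2 CPM in tumour DN against 0 in every ndLN DN library. The part of both cell types in the Zeb2 values was not tested.

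Genes known to go with Id2 and Zeb2 or with Id3 and Zeb1 were followed as lists, which were chosen with earlier results of these data known. Of 12 effector genes tied to Id2 and Zeb2, 11 were tested. In tumour DN against ndLN DN Tregs, 10 of the 11 rose and 0 fell, with a median log2 fold change of 4.18 beside 0.0135 over all genes. They include Gzmb (6.81 ± 0.815) and Klrg1 (4.41 ± 0.743), a cytotoxic granule protease and a receptor of late effector cells. Of 12 memory genes tied to Id3 and Zeb1, 9 fell and 0 rose in the same comparison, with a median of -2.37. They include Bach2 (-3.50 ± 0.577) and Tcf7 (-3.19 ± 0.346), which act in quiescence and stem-like identity. In naive Tregs of the IL10 sort against DN, 7 of 11 effector genes rose and 7 of 12 memory genes fell, with medians of 4.31 and -1.09 beside 0.00597. In tumour Tregs of the IL10 sort against DN, 0 of 11 effector genes were called and 4 of 12 memory genes fell, which were Tcf7 (-2.69 ± 0.372), S1pr1 (-1.92 ± 0.184), Ccr7 (-1.88 ± 0.368) and Slamf6 (-0.77 ± 0.151).

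Between tumour DN and ndLN DN the called shares of the cofactor, target and upstream lists lay near the 23.4% called among all genes. Of 13 tested cofactors and relatives, 4 fell and 0 rose in tumour DN against ndLN DN, among them Ldb1 (-0.80 ± 0.192), an adaptor of helix-loop-helix complexes. Of 10 tested lymphocyte genes known as E protein targets, 4 fell there, including Dtx1 (-2.99 ± 0.596), Cxcr5 (-2.55 ± 0.898) and Foxo1 (-1.05 ± 0.142). Of 20 upstream signalling genes, 4 rose and 2 fell, with Prdm1 at 3.03 ± 0.343 and the TGF-beta receptor gene Tgfbr1 at -1.33 ± 0.178. Cxcr5, Foxo1 and Prdm1 each stand in more than 1 list.

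In the CD8 series Id2 had its lowest median in the lymph node. Over the 12 libraries of each population its lowest, median and highest levels were 191, 216 and 302 CPM in NDLN, 306, 476 and 1072 CPM in NEG, 534, 1096 and 2143 CPM in INT, 252, 843 and 1403 CPM in SP and 512, 1044 and 1588 CPM in DP. NDLN did not overlap with NEG, INT or DP and overlapped with SP through 1 Il10 library at 252 CPM, and the 4 tumour populations overlapped. Within the sets, NEG exceeded NDLN in 12 of 12, INT exceeded NEG in 12 of 12 and DP exceeded NEG in 12 of 12. In a fit of all 60 libraries, averaged over genotypes, Id2 was 2.43-fold higher in NEG than in NDLN (log2 1.28 ± 0.197, edgeR adjusted p = 6.77e-06) and 2.23-fold higher in INT than in NEG (log2 1.16 ± 0.196, edgeR adjusted p = 5.6e-05). It was then lower in SP than in INT, by log2 -0.66 ± 0.196 (edgeR adjusted p = 0.0102), a call that was lost without replicate 1 of Il10 or replicate 3 of yfp and ran from -0.962 to -0.403. DP against SP was not called (log2 0.50 ± 0.194, edgeR adjusted p = 0.0658). DP stood 2.01-fold above NEG (log2 1.01 ± 0.195, edgeR adjusted p = 2.91e-05). Of all genes 14% were called between NEG and NDLN, 11.7% between INT and NEG, 26.9% between SP and INT, 18.5% between DP and SP and 53.9% between DP and NEG.

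**Figure D3:**
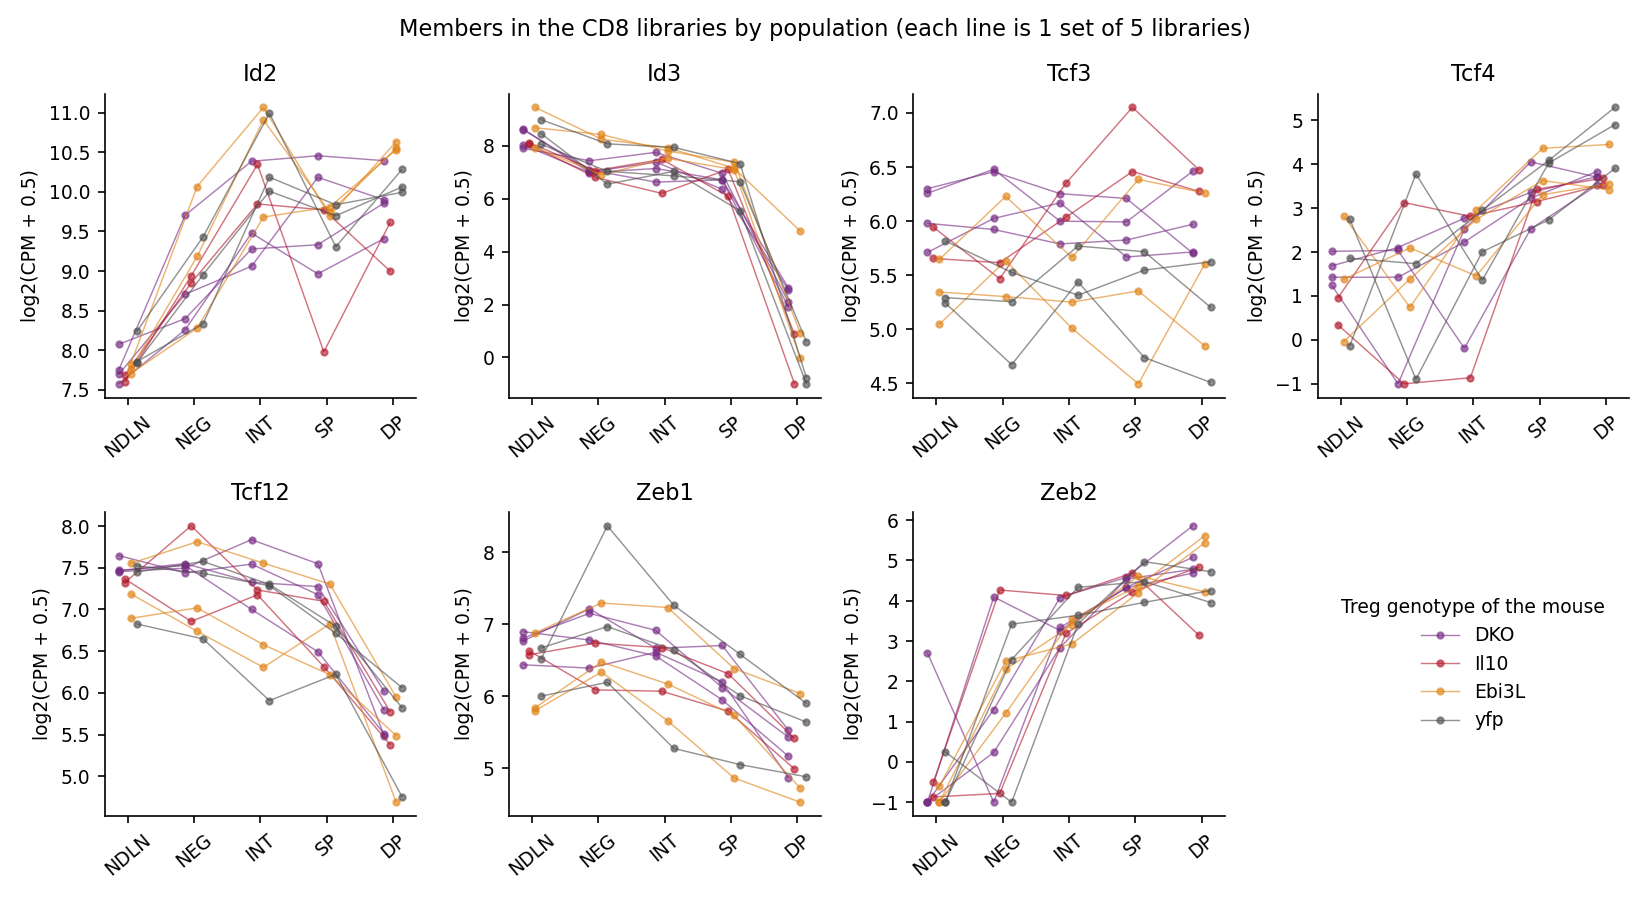
Levels of 7 members, as log2 of CPM plus 0.5, over the 5 CD8 populations, with 1 line for each set of 5 libraries and colours for the 4 genotypes. Id3 drops between SP and DP in all 12 sets, to a median of 1.36 CPM, Tcf4 is higher in DP than in NEG in 12 of 12 sets and Zeb2 in 11 of 12, and Tcf3 shows no common direction.

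Id3 was close to 0 in DP, the PD-1 high and TIM-3 positive population. Its lowest, median and highest levels were 240, 315 and 704 CPM in NDLN, 93.5, 132 and 345 CPM in NEG, 73.3, 173 and 246 CPM in INT, 46.1, 114 and 167 CPM in SP and 0, 1.36 and 26.8 CPM in DP. DP lay below each of the other populations without overlap and was lower than SP in 12 of 12 sets. Its highest value, 26.8 CPM, came from 1 Ebi3L library, and the next was 5.68 CPM. Over genotypes Id3 fell, with a log2 fold change of -5.86 ± 0.468 between DP and SP (edgeR adjusted p = 4.98e-12) and -6.43 ± 0.483 between DP and NEG (edgeR adjusted p = 2.25e-14). Both calls held without each set in turn, with values from -7.53 to -5.65 and from -8.27 to -6.17. NEG was lower than NDLN by log2 -1.04 ± 0.341 (edgeR adjusted p = 0.0333), in 12 of 12 sets, but this call was lost in 7 of 12 fits that left out a set, where the adjusted p reached 0.0865. The sets whose omission ended it were replicates 2, 3 and 4 of DKO, 1 and 2 of Il10, and 2 and 3 of yfp. INT against NEG (log2 -0.01 ± 0.339) and SP against INT (log2 -0.56 ± 0.34) were not called.

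The 3 E protein genes took different courses over the CD8 populations. Tcf12 had lowest, median and highest levels of 113, 175 and 200 CPM in NDLN, 99.7, 176 and 256 CPM in NEG, 59.5, 153 and 228 CPM in INT, 74.0, 112 and 187 CPM in SP and 25.3, 49.6 and 66.3 CPM in DP. DP lay below NDLN, NEG and SP without overlap and below INT but for the lowest INT library, at 59.5 CPM. Tcf12 had log2 fold changes of -1.17 ± 0.108 between DP and SP (edgeR adjusted p = 2.79e-11) and -1.79 ± 0.11 between DP and NEG (edgeR adjusted p = 3.79e-18), in 12 of 12 sets each, and both held without each set. Smaller decreases between INT and NEG (log2 -0.31 ± 0.107, edgeR adjusted p = 0.0462) and between SP and INT (log2 -0.30 ± 0.107, edgeR adjusted p = 0.0313) were lost in 10 and in 6 of 12 fits that left out a set, where they ran from -0.431 to -0.169 and from -0.38 to -0.213. The 10 sets of the first were all but replicate 3 of DKO and replicate 1 of Il10, and the 6 of the second were replicates 1 and 2 of yfp, 1 of Il10, 1 and 3 of Ebi3L and 4 of DKO.

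Tcf4 went the other way. Its lowest, median and highest levels were 0.406, 2.14 and 6.57 CPM in NDLN, 0, 2.51 and 13.2 CPM in NEG, 0.0501, 4.71 and 7.24 CPM in INT, 5.26, 10.0 and 20.1 CPM in SP and 10, 12.6 and 38.8 CPM in DP. DP lay above NDLN and INT without overlap and above NEG but for 1 NEG library of 13.2 CPM. Tcf4 was 4.99-fold higher in DP than in NEG (log2 2.32 ± 0.649, edgeR adjusted p = 0.0022), in 12 of 12 sets, and stayed called without each set, from 1.92 to 4.62, the higher value without replicate 2 of Il10. SP exceeded INT in 12 of 12 sets as well, but that difference was not called (log2 1.55 ± 0.622, edgeR adjusted p = 0.0577). Tcf4 also marks plasmacytoid dendritic cells. Their list of 6 genes summed to 15.9 to 78.9 CPM in DP against 32.0 to 148 CPM in NEG, and Siglech, their defining surface marker, was at 0 in all 12 DP libraries and reached 7.75 CPM in NEG of Il10. Their part in the Tcf4 difference was not tested. Tcf3 had medians of 50.9, 48.9, 54.4, 54.2 and 51.8 CPM in NDLN, NEG, INT, SP and DP, its populations overlapped throughout, and edgeR, DESeq2 and limma each called it in 0 of 5 comparisons over genotypes, with 0 at an unadjusted p under 0.05.

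Zeb1 and Zeb2 moved in opposite directions between DP and NEG. Zeb1 had lowest, median and highest levels of 55.3, 96.8 and 119 CPM in NDLN, 67.6, 108 and 329 CPM in NEG, 38.3, 98.3 and 153 CPM in INT, 28.7, 66.5 and 104 CPM in SP and 22.6, 38.8 and 65.2 CPM in DP. DP lay below NEG without overlap and overlapped with the other populations. Zeb1 fell, by log2 -1.57 ± 0.13 between DP and NEG (edgeR adjusted p = 3.1e-14), -0.65 ± 0.127 between DP and SP (edgeR adjusted p = 0.000188) and -0.52 ± 0.127 between SP and INT (edgeR adjusted p = 0.00168), and these 3 calls held without each set. It was higher in NEG than in NDLN by log2 0.42 ± 0.126 (edgeR adjusted p = 0.0177), a call lost without replicate 2 of yfp, which held the 329 CPM library, or replicate 2 of Il10, with values from 0.245 to 0.516. INT was lower than NEG by log2 -0.41 ± 0.126 (edgeR adjusted p = 0.0262), which was lost in 6 of 12 fits that left out a set, over values from -0.455 to -0.337. Those were replicates 1 and 2 of Il10, 4 of DKO, 2 and 3 of Ebi3L and 3 of yfp.

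Zeb2 was listed at 0 in 7 of 12 NDLN libraries and was present in all 36 libraries of INT, SP and DP. Its lowest, median and highest levels were 0, 0 and 6.04 CPM in NDLN, 0, 3.19 and 18.8 CPM in NEG, 6.66, 10 and 19.7 CPM in INT, 15.1, 21.0 and 30.9 CPM in SP and 8.37, 26.4 and 57.6 CPM in DP. SP and NDLN did not overlap, and neither did DP and NDLN or INT and NDLN. Zeb2 was 23.8-fold higher in NEG than in NDLN (log2 4.57 ± 0.911, edgeR adjusted p = 0.000367), in 10 of 12 sets, and 5.89-fold higher in DP than in NEG (log2 2.56 ± 0.759, edgeR adjusted p = 0.00411), in 11 of 12. The first call was lost without replicate 2 of Il10, over values from 3.3 to 6.68, the higher without replicate 1 of DKO. The second was lost without replicate 1 of Il10, over values from 1.81 to 4.17, the higher without replicate 2 of Il10. NK cells express Id2 and Zeb2, and their list of 6 genes summed to 18.4 to 190 CPM in the tumour CD8 populations against 4.99 to 19 CPM in NDLN. Ncr1, an NK receptor gene, reached 2.06 CPM in NEG of yfp and 1.05 CPM in NEG of DKO, against 0 in every NDLN library, and was also at 0 in every INT, SP and DP library. A myeloid list of 12 genes, 11 of them measured, had lowest, median and highest sums of 1.83, 8.03 and 18.9 CPM in NDLN, 4.73, 10 and 29.4 CPM in NEG, 7.56, 31.4 and 44.0 CPM in INT, 13, 31.9 and 92.9 CPM in SP and 10.7, 24.4 and 42.9 CPM in DP, and such cells also express Zeb2. The part of NK or myeloid cells in the Zeb2 differences was not tested. Id1 was called in 0 of 5 of these comparisons by edgeR, with 1 at an unadjusted p under 0.05, and in 3 by DESeq2, at medians of 0.0205, 0.703, 0.973, 0 and 0.142 CPM in NDLN, NEG, INT, SP and DP.

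**Figure D4:**
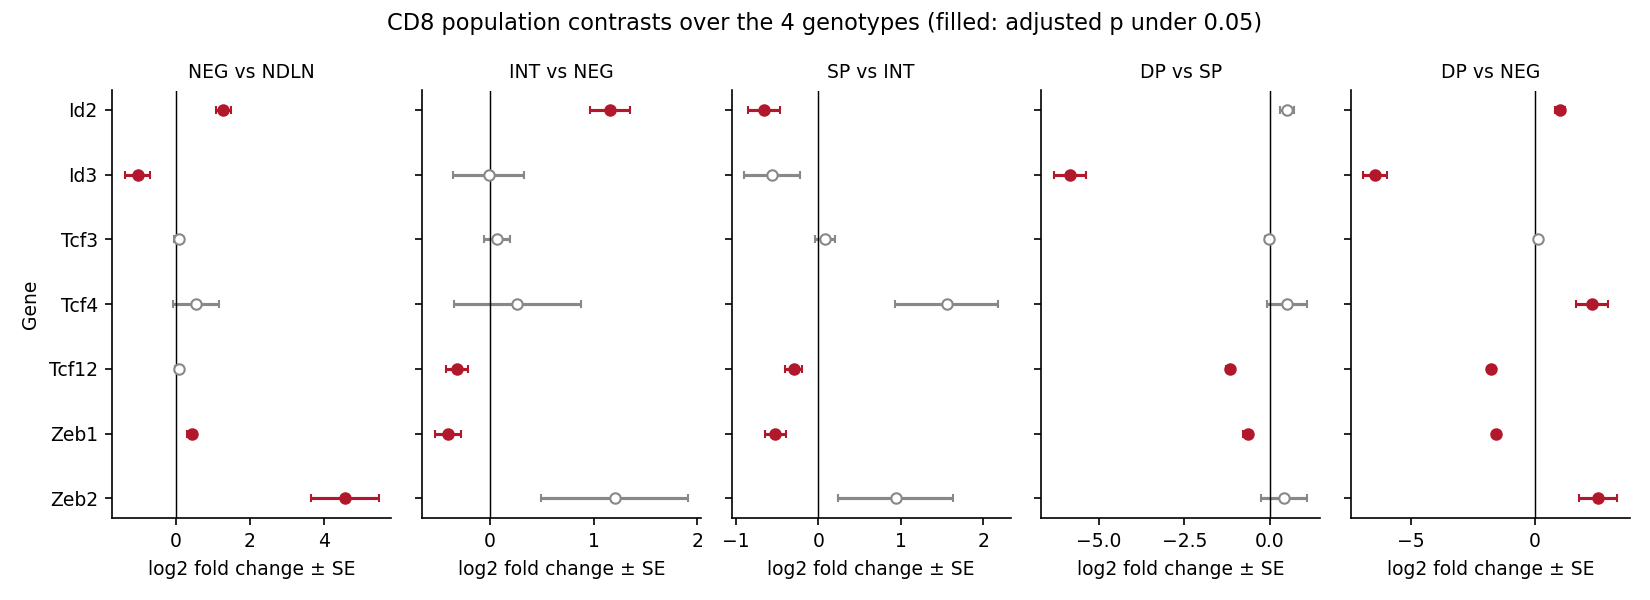
Log2 fold changes with their SE of 7 members in 5 contrasts of CD8 populations over the 4 genotypes, on an axis of its own for each contrast, with filled points where the edgeR adjusted p was under 0.05. In DP against NEG, Id2, Tcf4 and Zeb2 lie above 0 and Id3, Tcf12 and Zeb1 below, with Id3 at -6.43.

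Within single genotypes the DP contrasts carried most of the calls. Between DP and NEG, Id3 fell in all 4 genotypes, with log2 fold changes of -4.97 ± 0.679 in DKO, -7.37 ± 1.11 in Il10, -4.80 ± 0.771 in Ebi3L and -8.56 ± 0.974 in yfp. The calls in DKO, Ebi3L and yfp held without each set of the genotype. The size depended on the set left out, from -5.13 to -4.77 in DKO, -7.81 to -4.11 in Ebi3L and -11.8 to -7.69 in yfp. In Il10, where leaving out a set leaves a single library per group, it ran from -14.8 to -6.34. The most negative values were those without replicate 2 of Il10, replicate 3 of Ebi3L and replicate 1 of yfp. Tcf12 fell there at -1.80, -1.92, -1.75 and -1.67 in the same order of genotypes, and Zeb1 at -1.65, -1.24, -1.58 and -1.82. Id2 rose in DKO, Ebi3L and yfp, by log2 1.05, 1.33 and 1.19, and was not called in Il10. Tcf3 was called in Il10 alone, at log2 0.82 ± 0.29 (edgeR adjusted p = 0.0335), and lost without either Il10 replicate, at 0.699 and 0.955. The share of all genes called between DP and NEG was 34.2% in DKO, 24.4% in Il10, 31.3% in Ebi3L and 26.3% in yfp. The Id2 calls were each lost without some set, namely replicate 1 in DKO, replicate 1 in Ebi3L and replicate 1 or 2 in yfp, and the Zeb1 call in Il10 was lost without either of its replicates.

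Between DP and SP, the log2 fold change of Id3 was -4.45 ± 0.664 in DKO, -7.06 ± 1.1 in Il10, -4.10 ± 0.752 in Ebi3L and -7.82 ± 0.952 in yfp, where 7.69%, 0.421%, 2.76% and 0.876% of genes were called. Tcf12 fell in the same 4 comparisons, at -1.36 ± 0.182, -1.11 ± 0.256, -1.27 ± 0.21 and -0.95 ± 0.209. The Id3 values ran from -4.66 to -4.28 in DKO, -13.7 to -6.61 in Il10, -7.32 to -3.27 in Ebi3L and -10.8 to -7.06 in yfp when a set was left out, the most negative without the same 3 replicates as above. The Id3 call in Il10 was lost without replicate 1 (edgeR adjusted p = 0.0783). Fitted on that genotype's libraries alone, the Id3 calls in Il10 (edgeR adjusted p = 0.22) and in Ebi3L (0.0747) were lost. In the same comparisons the Tcf12 call was lost without replicate 1 or 2 in Il10, replicate 2 in Ebi3L and replicate 1 or 3 in yfp. Zeb1 was called between DP and SP in DKO alone, at log2 -0.96 ± 0.214 (edgeR adjusted p = 0.00361). Between NEG and NDLN, Id2 rose in DKO (log2 1.16) and in Ebi3L (1.59 ± 0.385) and Zeb1 in yfp (0.97 ± 0.247), where 4.13%, 1.26% and 1.29% of genes were called, and none was called in Il10, where 1.84% were. These 3 calls were lost without replicate 2, 3 or 4 in DKO, replicate 2 or 3 in Ebi3L and replicate 1 or 2 in yfp. Between INT and NEG edgeR called 0 of 8 members in each genotype, beside 0.0475% of genes in DKO, 0.557% in Il10, 1.11% in Ebi3L and 0.835% in yfp. At an unadjusted p under 0.05 there were 1, 2, 2 and 2 members, beside 1411, 2094, 1914 and 1583 of 14734 genes. DESeq2 called 0, 1, 1 and 2 members. Between SP and INT edgeR also called 0 of 8, beside 1.8%, 3.25%, 3.15% and 3.19%. There 1, 1, 3 and 1 members had an unadjusted p under 0.05, beside 2131, 2684, 2554 and 2651 of 14734 genes, with 0, 0, 1 and 0 calls by DESeq2.

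Genotype of the Tregs was the other axis of the CD8 series, and here DKO, Il10 and Ebi3L were each set against yfp within a population, in 15 comparisons with batch as a term. Batch was uneven over genotypes, since yfp and Ebi3L had no library in batch 2, and DKO and Il10 had none in batch 3. The batch 2 library of Il10 was thus tied to yfp only by way of DKO. The CPM values and overlaps given for genotypes are not adjusted for batch, whereas the log2 values are. edgeR called 0 of 8 members in each of the 15, and 0.00775% of genes in the 3 INT comparisons, 0.00811% in Il10 NDLN and 0.0% in the other 11. At an unadjusted p under 0.05 there were 13 of 120 member tests by edgeR, 19 by DESeq2 and 10 of 105 by limma on the deposited values. Over all genes, edgeR gave such a p to between 156 of 12943 (DP of Il10) and 973 of 13255 (SP of DKO) in a comparison. Only DESeq2 called any member, which was Id1 in DP of Il10. Id1 was at 0 in both of these Il10 libraries and at 0, 0.147 and 0.390 CPM in DP of yfp, where the floor is 0.0913 CPM. Id2, the most abundant member, averaged 976 ± 274 CPM in DP of DKO, 647 ± 192 CPM in Il10, 1521 ± 59.1 CPM in Ebi3L and 1111 ± 119 CPM in yfp (SD, n = 4, 2, 3 and 3). Ebi3L lay above yfp and Il10 below it without overlap, at log2 0.37 ± 0.227 and -0.67 ± 0.304, and neither was called (unadjusted p = 0.129 and 0.0503). Leaving out replicate 4 of DKO made Id2 in INT a call, at log2 -0.94 against yfp (edgeR adjusted p = 0.0455).

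Tcf3 and Tcf4 had the 4 lowest unadjusted p of these tests, and none passed the adjustment. By edgeR Tcf3 had an unadjusted p under 0.05 in 5 of the 15 comparisons and Tcf4 in 2. Tcf4 in DP stood at 13.8, 12.5, 11 and 12.6 CPM in DKO and at 11.3, 21.3 and 10 CPM in Ebi3L, against 14.5, 29.4 and 38.8 CPM in yfp. DKO did not overlap with yfp and Ebi3L did, with log2 -0.90 ± 0.367 (unadjusted p = 0.0314, edgeR adjusted p = 0.935) and -1.16 ± 0.374 (unadjusted p = 0.00953, edgeR adjusted p = 0.784). Tcf3 averaged 82.7 ± 8.2 CPM in DP of Il10 (SD, n = 2) and 50.8 ± 24.1 CPM in DP of Ebi3L, against 35.8 ± 13.3 CPM in DP of yfp (SD, n = 3 each), at log2 0.69 ± 0.292 and 0.78 ± 0.247 (edgeR unadjusted p = 0.0369 and 0.00883). In DP Il10 lay above yfp without overlap, whereas Ebi3L overlapped with yfp. In SP Tcf3 averaged 110 ± 31.6 CPM in Il10 (n = 2) against 41.5 ± 13.6 CPM in yfp (n = 3), without overlap. In NEG it averaged 75.2 ± 14.9 CPM in DKO (n = 4) against 36.1 ± 10.4 CPM in yfp (n = 3) without overlap, at log2 0.77 ± 0.239 (unadjusted p = 0.00724). The matching difference in DP of DKO, and those in the other populations of DKO, did not reach an unadjusted p under 0.05 for Tcf3.

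Id3 in DP was higher in some genotypes than in others at these low levels. It was at 3.73, 5.33, 5.68 and 3.24 CPM in DKO, at 0 and 1.34 CPM in Il10 and at 0.475, 1.38 and 26.8 CPM in Ebi3L, against 0.999, 0 and 0.0836 CPM in yfp. DKO lay above yfp and Il10 without overlap, yet the DP comparison of DKO with yfp had an unadjusted p of 0.061. The difference between DP and NEG for Id3 was less negative in DKO than in yfp by log2 3.60 ± 1.05 (edgeR adjusted p = 0.481, unadjusted p = 0.00147) and in Ebi3L than in yfp by 3.76 ± 1.1 (edgeR adjusted p = 0.662, unadjusted p = 0.00153), and in Il10 the difference was 1.19 ± 1.33. In these 3 differences edgeR called 0 of 8 members and 0.00679%, 0.0% and 0.0136% of genes in DKO, Il10 and Ebi3L. An unadjusted p under 0.05 was found in 3 of 24 member tests, beside 764, 980 and 825 of 14734 genes. DESeq2 and limma also called 0 members. Without the filter on low counts the 2 Id3 differences were called, at log2 3.59 ± 0.322 and 3.80 ± 0.338 (edgeR adjusted p = 1.6e-25 and 9.57e-26), with much smaller SEs on nearly the same differences.

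The lists that follow the Id and Zeb pairs moved over the CD8 populations as well. Of 12 effector genes tied to Id2 and Zeb2, 9 rose and 0 fell between NEG and NDLN, with a median log2 fold change of 3.52 beside 0.00345 over all genes. Between DP and NEG 9 rose and 2 fell, with a median of 2.72 beside 0.0456, among them Prdm1 (4.05 ± 0.682), a transcriptional repressor that promotes terminal differentiation, Ctla4 (4.05 ± 0.351), an inhibitory receptor, and Havcr2 (8.40 ± 0.927), which encodes the TIM-3 used in the sort. Of 12 memory genes tied to Id3 and Zeb1, 0 rose and 2 fell between NEG and NDLN, and 0 rose and 11 fell both between DP and SP and between DP and NEG, with medians of -2.45 and -3.54. The DP and SP difference was -5.76 ± 0.446 for Tcf7, a factor of stem-like T cells, -3.28 ± 0.289 for the interleukin-7 receptor gene Il7r and -4.10 ± 0.521 for the chemokine receptor gene Cxcr5, all on the log2 scale. Tcf7 and Id3 thus lay in the same comparison with falls of like size, at -5.76 and -5.86. Gzmb (2.81 ± 0.535) and Prf1 (2.62 ± 0.173), which encode granzyme B and perforin, rose between DP and SP, where 4 of the 12 effector genes rose and 1 fell.

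Among all genes 18.5% were called between DP and SP and 53.9% between DP and NEG, and between DP and NEG the called shares of the target, cofactor and upstream lists lay not far from that share. Of 10 tested lymphocyte genes known as E protein targets, 0 rose and 6 fell between DP and SP, and 1 rose and 6 fell between DP and NEG, with medians of -1.11 and -2.58. Socs3, a brake on cytokine signalling, fell by 4.84 ± 0.275 on the log2 scale between DP and NEG. Of 8 Zeb targets, 0 rose and 5 fell between DP and SP and 1 rose and 4 fell between DP and NEG. They include Crb3 (-4.26 ± 1.03) and Cdh1 (-3.26 ± 0.841) between DP and NEG, a polarity gene and the E-cadherin gene. Of 13 tested cofactors, 2 rose and 4 fell between DP and NEG, with the deacetylase gene Hdac1 at 1.29 ± 0.0792 and the acetyltransferase genes Crebbp at -1.21 ± 0.159 and Ep300 at -0.81 ± 0.137. Of 20 upstream genes 4 rose and 10 fell, with Egr2 (2.18 ± 0.421), which antigen receptor signalling induces, and Smad3 (-2.64 ± 0.269), a transducer of TGF-beta. S1pr5, Il7r, Foxo1, Prdm1, Cxcr5 and Tbx21 each stand in more than 1 list, so the lists are not separate counts.

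Set against each other within a library, Id2 and Id3 changed places between cell states. The log2 ratio of Id2 to Id3 CPM averaged 9.32 ± 1.29 in the tumour IL10 sort, 7.56 ± 0.293 in the tumour Ebi3 sort and 7.01 ± 0.302 in tumour DN. In ndLN Tregs it was 3.46 ± 0.356, -0.88 ± 0.366 and -2.75 ± 0.522, and in naive Tregs 2.72 ± 0.46, -1.26 ± 0.363 and -3.32 ± 0.546 in the same order of sorts (SD, n = 3 each). Teff had -1.05 ± 0.509. In the CD8 series it was -0.62 ± 0.483 in NDLN, 1.62 ± 0.48 in NEG, 2.80 ± 0.708 in INT and 2.81 ± 0.72 in SP (SD, n = 12 each), and no ratio is given for DP, where some libraries hold no Id3 count. The IL10 sort was the one Treg sort whose ratio was above 0 at all 3 sites.

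**Figure D5:**
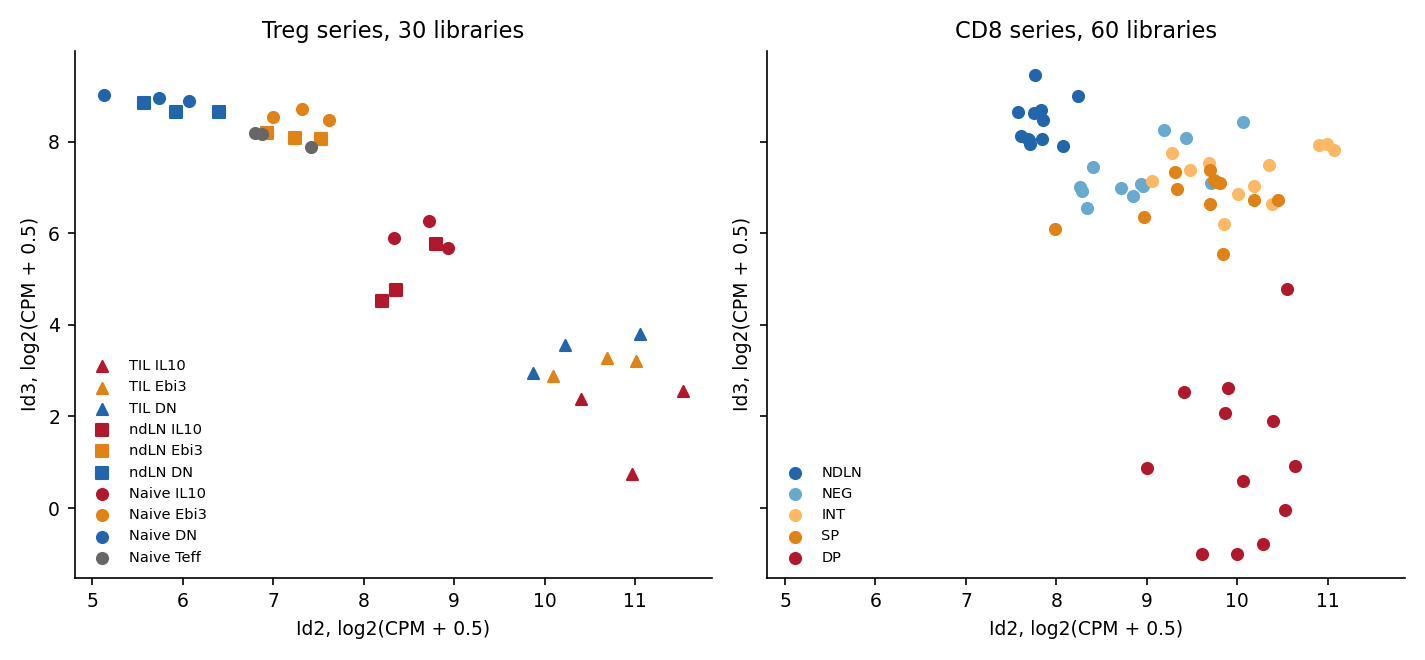
Levels of Id2 against Id3, each as log2 of CPM plus 0.5, in the 30 libraries of the Treg series (left) and the 60 CD8 libraries (right). In the Treg series the libraries run from high Id3 and low Id2 in DN Tregs outside tumours to the reverse in tumour Tregs. In the CD8 series the 12 DP libraries sit apart at low Id3.

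As a description over group means of log2 of CPM plus 0.5, which share libraries' depth and batch across genes, Id2 and Id3 had a Pearson r of -0.973 over the 10 Treg-series groups and -0.436 over the 20 CD8 groups. Id3 went with Tcf12 in both, at 0.921 and 0.898, and Id2 with Zeb2, at 0.895 and 0.85. In the CD8 groups Tcf12 also went with Zeb1 (0.88) and against Tcf4 (-0.797). The genes whose group means were most like those of Id2 were Lime1 and Smim3 in the Treg series (r = 0.989 each) and S100a6 (0.963) and Lgals3 (0.951) in the CD8 series. For Id3 they were Nsg2 (0.992) and Dennd6b (0.986) in the Treg series and Tcf7 (0.969) and Tespa1 (0.968) in the CD8 series. For Zeb2 they were Gp49a (0.984) and Asah1 (0.977), and Bhlhe40 (0.979) and Fam69b (0.977). Tcf12 was most like Slc35b4 and Rrp15 (0.987 each) in the Treg series and Cecr5 (0.976) and Tnfrsf26 (0.975) in the CD8 series, and Zeb1 like Pcyt2 (0.931) and Zc3h11a (0.952). The highest likeness of Tcf3 was 0.948 with Efcab2 in the Treg series and 0.874 with Traf7 in the CD8 series.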

How the data were processed

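RNA was sequenced from double-sorted mouse T cells in 90 libraries, made with SMART-Seq and Nextera XT kits per the labels' protocols. The authors deposited whole-number counts per gene and 2 tables of log2 values, 1 for the Treg series and 1 for the CD8 series. The submitters' processing notes name STAR, featureCounts, Subread, limma and the mm10 build. The annotation and the use of strand in counting were not given in the sources used here. Levels are CPM of the library total. Tests ran in edgeR 4.0.16 (R 4.3.3) with TMM scaling, filterByExpr, a trended dispersion and a robust quasi-likelihood fit, and SEs are the log2 fold change over the square root of F. The Treg fit used all 30 libraries with group and batch, the CD8 population fit all 60 with group and batch, and the genotype fits the 12 libraries of a population with batch. p-values were adjusted by Benjamini-Hochberg over all genes of a comparison at 0.05. Batch, which the labels number 1 to 3, was kept in the Treg fit because same-batch libraries deviate together, with a median correlation of 0.0729 over 135 pairs against -0.0549 over 270 pairs of other batches. Of 95 pairs of libraries of the same group, 0 differed by no more than sampling noise. The fit was tested on simulated counts. Alternatives were RLE size factors, DESeq2 1.42.0, no filter on low counts, limma 3.58.1 on the deposited log2 values, other block and batch terms, and leaving out each replicate. The log2 tables hold 5 members in the Treg series and 7 in the CD8 series. The members and lists were chosen with earlier results of these data known. By rule the text names all 8 members, the 2 genes most like each in group means of log2 of CPM plus 0.5, and from each list up to 4 called genes with the largest change, of which 1 is not reported here. Tables and figures were made with Python 3.11.15, pandas 2.3.3 and numpy 2.4.6. Protein sequences were not used here.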

Additional observations from a re-analysis of the deposited data

Results flagged for a closer look

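In 40 groups of 4 values, each 1 member in 1 DKO population, 6 held a library that stood apart from the other 3 by a rule on gaps. They were Id1 in NDLN (0.684 CPM, where the other 3 are at 0), in SP (1.06 CPM, above the others) and in DP (0.136 CPM, below the others), Tcf12 in NDLN (199.8 CPM, above the others, which hold 175 to 177 CPM), and Zeb2 in NDLN (6.04 CPM, where the other 3 are at 0) and in NEG (16.6 CPM, above the others). The Zeb2 values come from replicate 1 in NDLN and replicate 4 in NEG, and replicate 1 of NEG was at 0.

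The difference of tumour against ndLN Tregs was not the same in the IL10 sort as in DN, by log2 -1.885 for Id2 and 2.114 for Id3, by the interaction term given above.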

How the results depend on the processing

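No member call of the main fits changed direction under an alternative. For members not called, the direction was not followed. Over genotypes, 19 member calls among the 5 CD8 population comparisons became 24 with DESeq2 or without the filter on low counts and 14 to 18 without a set. Within genotypes the 28 member calls became 56 without the filter on low counts, and 7 of the 28 were lost with only that genotype's libraries, where Il10 had 3 member calls in place of 6 and 1331 over all genes in place of 4486. Genotype differences in the DP and NEG contrast went from 0 to 2 member calls without that filter, and from 3 calls over all genes to 491 with DESeq2, 562 without the filter, 10 with limma and 0 to 1097 without a set. Genotype effects went from 0 member calls to 1 with DESeq2 and 0 to 1 without a library, and from 4 calls over all genes to 1492 with DESeq2, 1095 without the filter, 17 with limma and 2 to 784 without a library. The Treg comparisons had 16792 calls over all genes, 8931 with no replicate block and 8278 to 11044 without a replicate, and 22 member calls, 17 to 20 without a replicate. The 2 member calls for the site differences were 4 with DESeq2, 1 with no replicate block and 1 to 2 without a replicate, beside 787 calls over all genes, which were 1310, 210 and 263 to 440. Member calls lost with no replicate block in the Treg fits were 5, which were Id2 in the difference of IL10 and DN between sites (adjusted p = 0.0553) and between the ndLN IL10 and Ebi3 sorts (0.0501), Id3 in naive DN against Teff (0.104) and in tumour IL10 against DN (0.0712), and Tcf4 in the naive IL10 against the Ebi3 sort (0.0519). CD8 libraries of the same genotype and number deviated together. Their median correlation was 0.095 over 120 pairs, against -0.0454 over 260 pairs of other numbers. Of the same-number pairs 56 correlated above 0.1, against 0 of the others, and the lowest same-number value was -0.00811. The rule used did not take this as pairing, so the main CD8 population fit has no term for the set. With the set as replicate block, the population comparisons again had 19 member calls over genotypes, 18 of them the same, since Tcf12 between INT and NEG was lost (adjusted p = 0.0642) and Tcf4 between SP and INT gained (0.0482). Of the member calls, 11 of 19 over genotypes, 16 of 28 within genotypes, 17 of 22 in the Treg comparisons and 1 of 2 site differences held in every fit that left out a set or, for Tregs, a replicate. Depth limits Id1, Tcf4 and Zeb2 where libraries lie at or under 3 counts, and Id3 in 3 of 12 DP libraries.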
